A study of Rattus norvegicus with 9 samples.

Results

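The immediate early response genes followed here are 10 genes that cells switch on within minutes of a stimulus: Fos, Fosb, Jun, Junb, Egr1, Myc, Ier2, Ier3, Dusp1 and Btg2. Each gene was followed through the probe sets whose only gene symbol in the platform annotation was exactly 1 of these names, and 13 of the 31042 probe sets on the array met that rule. They covered 9 of the 10 genes, out of 14217 genes with a probe set, because no probe set of the annotation used here was listed under Btg2, which was therefore not analysed here. Dusp1 and Fos had 2 probe sets each, Jun had 3, and the other 6 genes had 1.

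Liver RNA was measured on 9 one-colour Affymetrix rat arrays, 1 for each of 9 Wistar rats labelled male and weighing 180 to 220 g. The groups were a drug group given the compound named 7-P, a model group and a control group, with 12 rats each out of 36, of which 3 per group were drawn at random and arrayed. What was done to the model rats, whether the drug rats also received it, the age of the rats and the nature, dose and timing of 7-P are unknown here, as is the time between handling and tissue collection. All values below are log2 signals after quantile normalization unless said otherwise, so a difference of 1 is a doubling, and all differences are the first-named group minus the second.

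Immediate early genes need no new protein synthesis to be transcribed. Mitogens, cytokines, stress and tissue handling activate MAP kinases, which act on factors already bound to the promoters of these genes, chiefly serum response factor at CArG boxes and CREB at cyclic AMP response elements (CREs). Several of the products are transcription factors, and Dusp1 switches MAP kinases off again. The transcripts rise and decay quickly. In liver the family is known for its surge after partial hepatectomy and after injury.

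Upstream sequences were taken from the RefSeq promoter table for assembly GRCr8, in which 6 of the 10 genes had a window: Fosb, Junb, Egr1, Ier2, Dusp1 and Btg2. The windows of Egr1 and Junb are shown because these genes varied together over the arrays, and those of Ier2 and Dusp1 because they hold a CRE and because Dusp1 had the widest spread of the genes measured above background. Each window holds the 250 bases before the annotated start, 5′ to 3′, and capitals mark matches to the motifs searched.
Egr1, chr18:26736828-26737077, plus strand: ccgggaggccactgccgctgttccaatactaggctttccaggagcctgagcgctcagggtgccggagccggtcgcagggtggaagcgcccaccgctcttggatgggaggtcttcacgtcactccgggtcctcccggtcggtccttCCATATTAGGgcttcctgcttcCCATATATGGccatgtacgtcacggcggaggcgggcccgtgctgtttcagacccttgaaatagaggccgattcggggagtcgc
Junb, chr19:40080876-40081125, plus strand: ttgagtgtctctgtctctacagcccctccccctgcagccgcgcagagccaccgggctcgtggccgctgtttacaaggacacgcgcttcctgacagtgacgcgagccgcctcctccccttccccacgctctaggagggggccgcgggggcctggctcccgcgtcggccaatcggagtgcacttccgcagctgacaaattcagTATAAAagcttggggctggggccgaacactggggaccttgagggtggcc
Ier2, chr19:40399123-40399372, plus strand: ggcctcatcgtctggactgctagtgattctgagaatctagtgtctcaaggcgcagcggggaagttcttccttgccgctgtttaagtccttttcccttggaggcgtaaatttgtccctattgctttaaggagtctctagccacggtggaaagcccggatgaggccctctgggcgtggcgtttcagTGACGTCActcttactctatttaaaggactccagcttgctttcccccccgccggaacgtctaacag
Dusp1, chr10:17184603-17184852, plus strand: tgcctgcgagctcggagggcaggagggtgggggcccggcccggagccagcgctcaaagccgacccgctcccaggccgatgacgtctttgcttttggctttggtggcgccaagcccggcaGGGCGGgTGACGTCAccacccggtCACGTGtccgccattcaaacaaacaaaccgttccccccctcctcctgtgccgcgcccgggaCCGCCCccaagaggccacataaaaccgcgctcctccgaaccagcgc
The motifs, searched on both strands, were the CRE (TGACGTCA), the AP-1 site (TGANTCA), the EGR site (GCGNGGGCG), the GC box (GGGCGG), the TATA box (TATAAA), the E-box (CACGTG) and the CArG box, and no match overlapped another in the windows shown. The capitals in Egr1 are 2 CArG boxes that begin 105 and 83 bases before the start. A CArG box was found in 1.5% of the 33469 promoter windows of the table. The capitals in Junb are a TATA box 49 bases before the start, a motif found in 12.9% of all windows. The capitals in Ier2 are a CRE 66 bases before the start. In Dusp1 they are a CRE at 124 bases, an E-box at 107 and GC boxes at 131 and 46, and a CRE, an E-box and a GC box were held by 1.59%, 5.59% and 30.5% of all windows. Of the 6 genes with a window, 3 held a CRE (Ier2, Dusp1 and Btg2), 2 a GC box, 2 a TATA box, 1 an E-box, 1 an EGR site, 1 a CArG box and 0 an AP-1 site, the last 3 found in 4.29%, 1.5% and 6.34% of all windows. A match describes letters and not a site in use.

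Some facts of the whole series bear on these genes. The Gapdh 3′ to 5′ signal ratio, which is higher where less of the 5′ end of a transcript was measured, was 1.31, 9.20 and 8.71 in drug livers 1, 2 and 3, 4.09, 12.7 and 9.77 in model livers and 1.52, 3.14 and 3.07 in control livers. Every model liver thus had a higher ratio than every control liver. Drug liver 3 and control liver 2 stood apart in sex-linked transcripts. Eif2s3y, a Y-linked gene, was at 7.17 and 6.99 there and at most 2.53 in the other livers. The X-linked RNA Xist was at 3.05 and 2.65 there and at least 8.06 in the others. All rats carried the label male, and only drug liver 3 and control liver 2 had the male pattern of these transcripts. The other livers, every model liver among them, had the female pattern, at odds with the label. The hepatocyte markers, 7 of 7 above the filter, summed to log2 levels of 14.58 to 14.67 in the drug livers. The sums were 14.57 to 14.72 in the model livers and 14.60 to 14.64 in the control livers. Alb, the brightest of these markers, was at 12.72 in all 3 control livers after quantile normalization. A sum led by such bright signals varies little by construction and is no measure of hepatocyte content. Fewer cells of a type and less RNA per cell cannot be told apart in such bulk samples.

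No member differed between groups past the threshold, a limma adjusted p under 0.05 over all 18625 probe sets that passed the filter on low signals. Of the 13 member probe sets 11 passed that filter, which kept probe sets at or above the 40th percentile of mean signal. The adjusted p of the members was 0.998 in drug against model livers, where 0 of all 18625 probe sets (0%) passed. It was 0.409 to 0.999 in model against control livers and 0.713 to 0.974 in drug against control livers, with 0% of all probe sets passing in each. Of the 11 tested member probe sets, 1 had an unadjusted p under 0.05 in drug against model livers, 1 in model against control livers and 0 in drug against control livers, where 3.28%, 12.1% and 7.22% of all probe sets did. Of all 13, 2 had groups that did not overlap in drug against model livers (8.47% of all 31042 probe sets), 0 in model against control livers (17.9%) and 0 in drug against control livers (11.5%). In the F test over the 3 groups the lowest adjusted p of a member was 0.657, for the dimmer Dusp1 probe set, and 0% of all tested probe sets passed while 7.45% had an unadjusted p under 0.05.

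**Figure D1:**
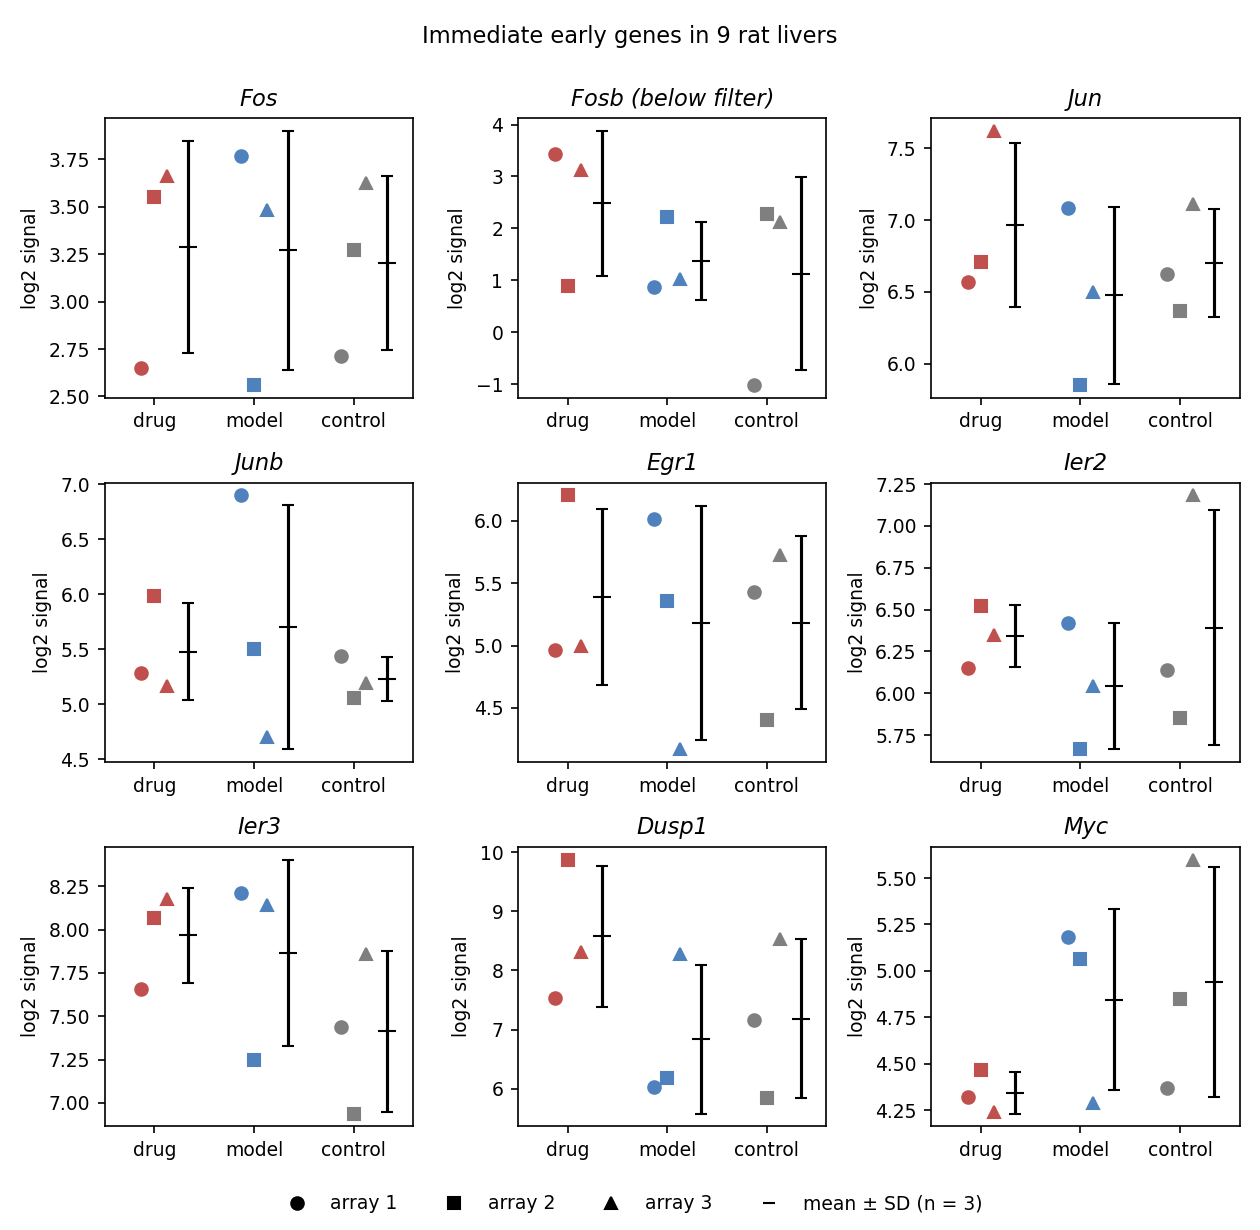
Log2 signal (vertical axes, scaled per gene) of the brightest probe set of 9 immediate early genes in the 3 drug, 3 model and 3 control livers (horizontal axes). Symbols are single arrays and bars the mean ± SD (n = 3); the groups overlap for each gene drawn, and Dusp1 runs over the widest scale of the 8 genes above the filter.

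Dusp1, a dual-specificity phosphatase that inactivates MAP kinases, held the largest difference of the members in drug against model livers, that of its dimmer probe set. Its brightest probe set, 1368146_at, had log2 signals of 7.54, 9.87 and 8.31 in drug livers 1, 2 and 3, against 6.03, 6.19 and 8.28 in model livers and 7.16, 5.85 and 8.53 in control livers. Drug liver 2 was the highest of all arrays, and drug livers overlapped model livers only because drug liver 1 lay below model liver 3. The mean was 8.57 ± 1.19 in drug and 6.83 ± 1.26 in model livers (SD, n = 3 each), a difference of 1.74 (SE 0.820, 95% interval -0.09 to 3.57), which is 3.34-fold, with a limma adjusted p of 0.998. Without drug liver 2 the difference was 1.09, and without model liver 3 it was 2.47. Control livers averaged 7.18 ± 1.34 (SD, n = 3), and the difference was -0.35 (SE 0.820) in model against control livers and 1.39 (SE 0.820) in drug against control livers. Model against control turned to 0.33 without control liver 3, and drug against control was 0.73 without control liver 2.

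The other Dusp1 probe set, 1368147_at, had log2 signals of 5.91, 4.55 and 4.17 in drug livers, 3.48, 2.45 and 1.93 in model livers and 4.86, 2.92 and 4.70 in control livers. Every drug liver lay above every model liver, as it did for 3.35% of all tested probe sets. The model mean of this probe set, 2.62, and its values in model livers 2 and 3 lay under the filter of 2.82. It passed the filter through its drug and control signals, and the size of its differences rests on dim model values. The difference was 2.26 in drug against model livers (SE 0.659, 95% interval 0.79 to 3.73, unadjusted p = 0.00647 in limma), 4.78-fold, and the adjusted p was again 0.998. In model against control livers it was -1.54 (SE 0.659, unadjusted p = 0.0416, limma adjusted p = 0.409), and control liver 2 lay within the model livers. This probe set was lower where the Gapdh ratio was higher within groups, with a slope of -0.65 for each doubling of the ratio (limma adjusted p = 0.0760), and with a term for the ratio the model against control difference was -0.43. With the same term the drug against model difference was 1.77. Without control liver 2 the model against control difference was -2.16, and the drug against control difference, 0.72 with all arrays, was 0.10. The brightest Dusp1 probe set had a slope of 0.50 (limma adjusted p = 0.344). With the term its difference was 2.12 in drug against model, -1.21 in model against control and 0.92 in drug against control livers. None of the 11 tested member probe sets followed the Gapdh ratio at an adjusted p under 0.05, where 14.3% of all tested probe sets did. The 2 Dusp1 probe sets had the same sign of difference in each of the 3 comparisons, but over the 9 arrays their Pearson r was 0.35. Drug liver 1 and control liver 1, with the lowest Gapdh ratios, were the highest arrays of the dimmer probe set, while drug liver 2 and control liver 3 were the highest of the brighter.

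**Figure D2:**
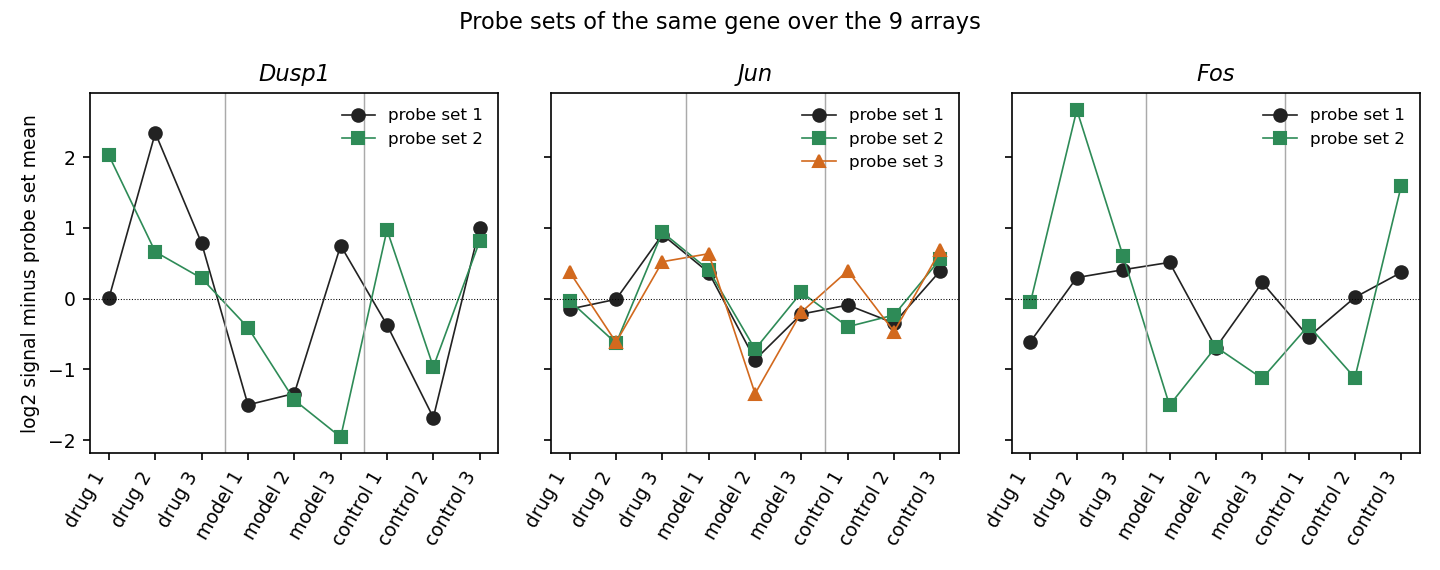
Log2 signal minus the mean of each probe set (vertical axis) in the 9 arrays (horizontal axis) for the genes with several probe sets, Dusp1, Jun and Fos; probe sets are numbered from the brightest. Lines join the values of a probe set and carry no order; the 3 Jun probe sets run together, with r between 0.77 and 0.86, while those of Dusp1 (r of 0.35) and Fos (r of 0.24) part.

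Fos, a founding subunit of the AP-1 transcription factor, was near the filter. Probe set 1375043_at had log2 signals of 2.65, 3.55 and 3.66 in drug livers, 3.77, 2.56 and 3.48 in model livers and 2.71, 3.27 and 3.63 in control livers, where the filter lay at 2.82. The group means were 3.29, 3.27 and 3.20, with differences of 0.02 in drug against model livers (95% interval -1.14 to 1.18) and 0.07 in model against control livers (-1.10 to 1.23). Leaving out 1 array moved the first to between -0.34 (without model liver 2) and 0.34 (without drug liver 1), and the second to between -0.18 (without model liver 1) and 0.42 (without model liver 2). The sign changed in 7 of 23 settings for each. The second Fos probe set, 1371283_at, lay below the filter, with 0.80, 3.52 and 1.45 in drug livers, -0.66, 0.17 and -0.28 in model livers and 0.47, -0.27 and 2.44 in control livers. Every drug liver was above every model liver, as for 3.93% of the 31042 probe sets without a filter, and all 3 model livers were dim. The difference was 2.18 (SE 1.01, 95% interval -0.04 to 4.39, limma adjusted p = 0.998 over all 31042 probe sets), from signals near background. Over the 9 arrays this dim probe set was closer to the brightest probe set of Dusp1 (Pearson r of 0.84) than to the other Fos probe set (r of 0.24), which is a description of 9 points and carries no test.

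Fosb, a close relative of Fos, was below the filter. Its signals were 3.44, 0.88 and 3.13 in drug livers, 0.87, 2.23 and 1.02 in model livers and -1.02, 2.28 and 2.12 in control livers. The groups overlapped and the order of such dim values cannot be read.

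Jun, the AP-1 partner that can pair with Fos or with itself, had 3 probe sets that ran together. The brightest, 1389528_s_at, had log2 signals of 6.57, 6.71 and 7.62 in drug livers, 7.08, 5.85 and 6.50 in model livers and 6.62, 6.37 and 7.11 in control livers. Drug liver 3 was the highest array and model liver 2 the lowest. The difference was 0.49 (SE 0.389, 95% interval -0.38 to 1.35, limma adjusted p = 0.998) in drug against model livers and -0.22 (SE 0.389) in model against control livers. Without drug liver 3 the drug against model difference was 0.16, and without model liver 1 it was 0.79. The model against control difference turned to 0.09 without model liver 2 and was -0.53 without model liver 1. With all arrays, the other Jun probe sets gave 0.17 and 0.39 in drug against model livers, and -0.05 and -0.50 in model against control livers, the same signs. In drug against control livers the 3 values were 0.26, 0.11 and -0.11, and the brightest turned to -0.23 without drug liver 3 and control liver 2.

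Junb, an AP-1 subunit that often restrains Jun, had its widest spread in the model group. Its signals were 5.29, 5.98 and 5.17 in drug livers, 6.90, 5.51 and 4.70 in model livers and 5.44, 5.06 and 5.19 in control livers. Model livers held both the highest and the lowest array, with an SD of 1.11 against 0.197 in control livers. The difference was -0.22 (SE 0.491) in drug against model livers and 0.47 (SE 0.491) in model against control livers. Both turned sign without model liver 1, to 0.37 and -0.13, and without model liver 3 they were -0.72 and 0.97. Model liver 1 also had the highest summed level of the neutrophil markers, 11.02, of which 4 of the 5 with a probe set passed the filter and Cxcr2 did not. That sum was 7.17 to 10.54 in drug livers, 8.78 to 11.02 in model livers and 6.94 to 8.38 in control livers. In model liver 3, the lowest array for Junb, it was 10.39. S100a8, S100a9 and the dim Cxcr2 were highest in model liver 1, at 9.09, 10.54 and 3.54, and Csf3r and Mmp8 were not. The part of the neutrophil sum in the Junb values was not tested.

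Egr1, a zinc finger factor induced through serum response factor, had almost the same mean in model and control livers. Its signals were 4.97, 6.21 and 5.0 in drug livers, 6.02, 5.36 and 4.17 in model livers and 5.43, 4.40 and 5.73 in control livers. The means were 5.39 ± 0.706, 5.18 ± 0.938 and 5.18 ± 0.694 in drug, model and control livers (SD, n = 3 each). The difference was 0.21 (95% interval -1.0 to 1.42) in drug against model livers and -0.00 (-1.21 to 1.21) in model against control livers, so a change of 2-fold in either direction lies inside or at the edge of both intervals. Without model liver 3 they were -0.30 and 0.50, and without model liver 1 they were 0.63 and -0.42.

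Myc, which drives growth and ribosome production, was the member with the tightest drug group. Its signals were 4.32, 4.46 and 4.24 in drug livers, 5.18, 5.06 and 4.29 in model livers and 4.37, 4.85 and 5.60 in control livers. The drug livers spread by an SD of 0.112, against 0.486 in model and 0.620 in control livers. All 3 drug livers lay under 2 of the 3 control livers, and the groups overlapped. The difference was -0.50 (SE 0.373, 95% interval -1.33 to 0.33, limma adjusted p = 0.998) in drug against model livers and -0.60 (SE 0.373, limma adjusted p = 0.724) in drug against control livers. It was negative in both comparisons under each of the 23 alternative settings, from -0.78 to -0.33 and from -0.88 to -0.27, and it passed in none of them.

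Ier2, a small early response factor of the nucleus, had signals of 6.15, 6.52 and 6.35 in drug livers, 6.42, 5.66 and 6.05 in model livers and 6.14, 5.85 and 7.18 in control livers. Control liver 3 was the highest array and model liver 2 the lowest. The differences were 0.30 (SE 0.360) in drug against model livers and -0.35 (SE 0.360) in model against control livers, and the difference from control livers turned to 0.05 without control liver 3. The drug against model difference was 0.11 without model liver 2 and 0.49 without model liver 1, and model against control was -0.62 without control liver 2.

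Ier3, an early gene that modulates ERK signalling and cell survival, had signals of 7.66, 8.06 and 8.18 in drug livers, 8.21, 7.25 and 8.14 in model livers and 7.44, 6.94 and 7.86 in control livers. Control liver 2 was the lowest array. It averaged 7.97 ± 0.272 in drug, 7.87 ± 0.537 in model and 7.41 ± 0.462 in control livers (SD, n = 3 each). The difference was 0.55 (SE 0.333, limma adjusted p = 0.716) in drug against control livers and 0.45 (SE 0.333, limma adjusted p = 0.559) in model against control livers. Without control liver 2 they were 0.32 and 0.22. In drug against model livers it was 0.10 (SE 0.333), and it turned to -0.21 without model liver 2. Without normalization they were 0.10 and -0.14, beside medians over all tested probe sets of -0.36 and -0.40.

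**Figure D3:**
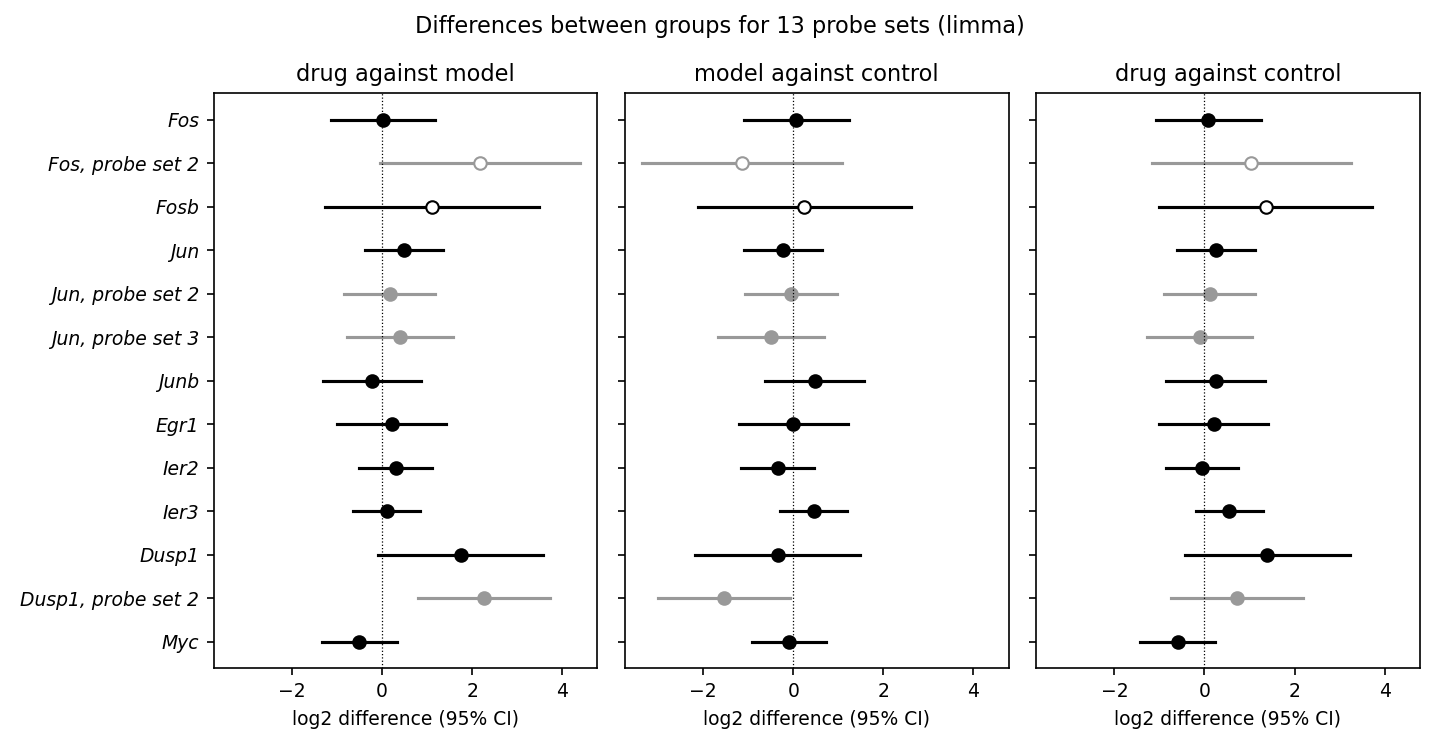
Log2 differences with 95% intervals (horizontal axes) for the 13 member probe sets (rows) in drug against model, model against control and drug against control livers, from the limma fit over all 9 arrays. Black marks the brightest probe set of a gene, grey the others and open circles probe sets below the filter; only the second Dusp1 probe set has an interval that leaves out 0, in drug against model (0.79 to 3.73) and model against control (-3.01 to -0.07).

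Taken as a list with 1 probe set per gene, 7 of the 9 genes were higher and 2 lower in drug than in model livers, with a median difference of 0.21, where the median of all tested probe sets was -0.02 and 47.4% of 14217 genes were higher and 52.6% lower. In model against control livers 4 were higher and 5 lower, with a median of -0.00 against 0.02 for all tested probe sets and 50.4% of genes higher and 49.6% lower. In drug against control livers 7 were higher and 2 lower, with a median of 0.25 against -0.02 and 47.7% of genes higher and 52.3% lower. Each pair of comparisons shares the arrays of 1 group. The medians ranged from 0.05 to 0.49, from -0.35 to 0.28 and from -0.09 to 0.47 over the alternatives, so the last 2 were of either sign. The split of the genes moved with the setting. In drug against model livers it was 5 higher and 4 lower without drug liver 2, without drug liver 3 or without model liver 2, and 8 higher and 1 lower without model liver 1. Without drug liver 3 and control liver 2 it was also 5 higher and 4 lower, with Fos at -0.17, Ier3 at -0.01, Jun at 0.16, Dusp1 at 1.87 and Myc at -0.45, and Dusp1 was at -1.01 in model against control livers. In model against control livers the split was 8 higher and 1 lower without control liver 3, and 1 higher and 8 lower without normalization. In drug against control livers it was 4 higher and 5 lower without drug liver 2, and 3 higher and 6 lower without normalization, where the median of all tested probe sets was itself -0.36.

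The spread of the early genes inside the groups differed from gene to gene. With 1 array per rat, differences between rats and between arrays cannot be told apart. The within-group SD of the brightest Dusp1 probe set was 1.26, above that of 94.2% of all tested probe sets, and that of Egr1 was 0.787 (78.2%) and that of Junb 0.70 (72.4%). The values of Ier3, 0.438 (41.7%), Myc, 0.460 (44.9%), and Ier2, 0.471 (46.6%), lay under the median of all tested probe sets, 0.494. Fos and Jun were at 0.554 and 0.532.

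Of the 8 genes above the filter, 7 lay above their own mean in model liver 1 and 7 in control liver 3. In drug liver 1 and in control liver 1, 7 of the 8 lay below it. The number of the 8 genes above their own mean was 1, 6 and 5 in drug livers 1, 2 and 3. It was 7, 3 and 3 in model livers and 1, 2 and 7 in control livers. The same count was not made over all tested genes, so a shift of the whole array cannot be told apart here. Drug liver 1 and control liver 1 had the lowest Gapdh ratios, 1.31 and 1.52, and the ratio was 4.09 in model liver 1 and 3.07 in control liver 3. The part of the ratio in these counts was not tested.

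After the group means were removed, 27 of the 28 pairs of these 8 genes had a positive Pearson r over the 9 arrays, with a median of 0.38, and 5 pairs reached 0.75. Those were Ier2 with Ier3 (0.84), Jun with Ier3 (0.84), Junb with Egr1 (0.84), Fos with Jun (0.78) and Fos with Ier3 (0.76). Ier2 had an r of 0.67 with Fos and 0.68 with Jun, while Fos had 0.18 with Egr1 and Junb had -0.22 with Dusp1. These are descriptions of 9 arrays that share their normalization, given without a test. Pairs of other genes were not counted in the same way, so the counts cannot be called particular to the early genes.

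**Figure D4:**
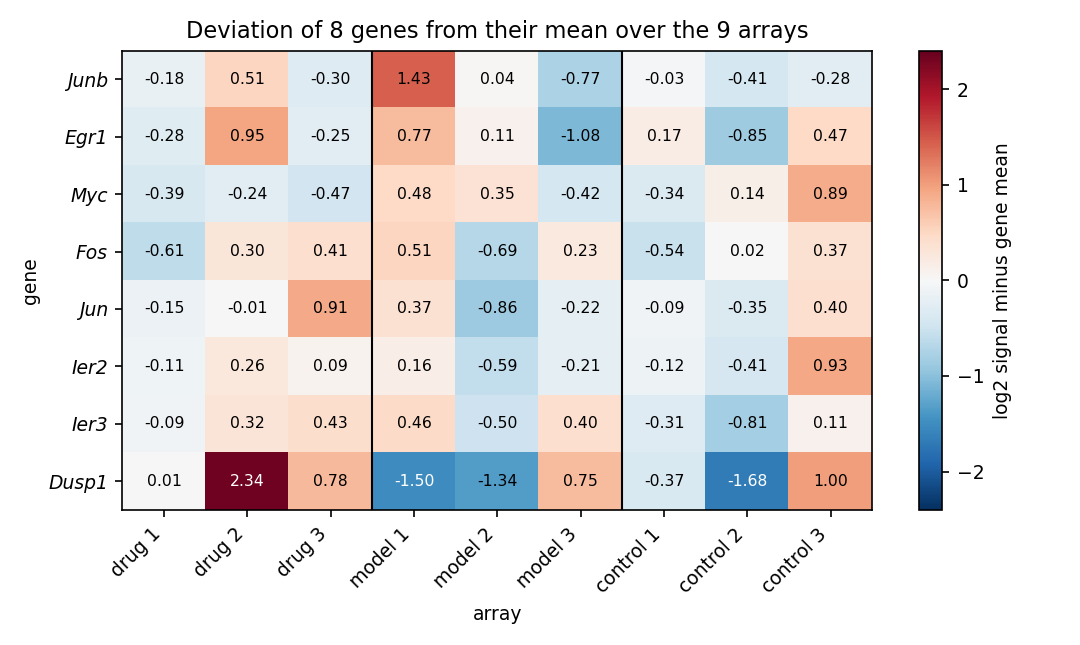
Log2 signal minus the gene's mean over the 9 arrays (colour and printed value) for the 8 immediate early genes above the filter (rows) in each liver (columns). Model liver 1 and control liver 3 are above the mean in 7 of 8 genes and drug liver 1 and control liver 1 below it in 7 of 8; Dusp1 has the strongest colours, from -1.68 to 2.34.

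Genes whose levels over the 9 arrays were most like those of a member were listed by Pearson r among 1 probe set for each of 10432 genes above the filter. For Dusp1 the closest was Plk3, itself an early response kinase, at 0.94, followed by Coq8b at 0.94 and Zfp523 at 0.90. Plk3 had 3.03, 3.96 and 3.69 in drug livers, 2.95, 2.86 and 3.55 in model livers and 3.31, 2.68 and 3.47 in control livers. Junb was most like Reln (0.96), which is 1 of the stellate cell markers used here, Clec1b (0.96) and Dcn (0.95). Junb and Reln were highest in model liver 1. Of the other stellate cell markers, Lrat and Rgs5 were also highest there, and Des, Col1a1, Col3a1 and Acta2 were not. Closest to Egr1 were Lnc215 (0.91), Epb41l2 (0.91) and H19 (0.89). For Fos they were Ccdc127 (0.94), LOC102551758 (0.94) and Daam1 (0.93), and for Jun Defb1 (0.90), Irx1 (0.87) and Pigh (0.87). Myc had Fam20b (0.92), Cdkn1c (0.92) and Rrn3 (0.90), Ier2 had Kctd11 (0.93), Vgll4 (0.88) and Rgs3 (0.87), and Ier3 had Igip (0.96), Nob1 (0.93) and Klhl33 (0.93). The mean z-score of the 8 genes was most like Gadd45g (0.91), a stress-induced growth arrest gene, with 4.93, 5.99 and 5.50 in drug livers, 7.07, 4.80 and 5.01 in model livers and 5.29, 4.65 and 6.10 in control livers. Gadd45g was high in model liver 1 and control liver 3, the arrays in which 7 of the 8 early genes lay above their own mean. These values are the top of 10432 ranked genes and carry no test.

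Relatives of these genes were followed in 6 further lists of 111 genes, of which 97 had a probe set and 81 passed the filter. None passed the threshold in any comparison (limma, lowest adjusted p of 0.998, 0.384 and 0.677). At an unadjusted p under 0.05, 4 were higher and 3 lower in drug than in model livers, 4 higher and 2 lower in model than in control livers and 6 higher and 3 lower in drug than in control livers. Over all tested probe sets, 1.47% were higher and 1.8% lower in the first comparison, 6.51% and 5.54% in the second and 4.19% and 3.03% in the third. The median differences of the 97 genes were 0.01, 0.08 and 0.13.

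Among 12 AP-1 partners 6 were higher and 6 lower in drug than in model livers (median -0.06), and 8 higher and 4 lower in model than in control livers (median 0.48). Only 6 of the 12 passed the filter. Atf4, the main factor of the integrated stress response, averaged 9.92 ± 0.154 in model and 9.28 ± 0.474 in control livers (SD, n = 3 each), a difference of 0.64 (SE 0.280, limma adjusted p = 0.410), with every model liver above every control liver, as for 11.8% of all tested probe sets. Atf2, a CRE-binding partner of Jun, differed by 1.30 (SE 0.834) in drug against model and by -1.11 (SE 0.834) in model against control livers. Fosl1, a Fos relative, differed by 1.11 (SE 0.838) in drug against model livers. Each had 1 model liver near background. Model livers 1, 2 and 3 were at 3.47, 3.06 and 0.39 for Atf2 and at 0.43, 3.00 and 3.65 for Fosl1.

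Of 18 other early transcription factors 9 were higher and 9 lower in drug than in model livers (median -0.02), and 10 higher and 8 lower in model than in control livers (median 0.16). Cebpd, an inducible C/EBP factor, averaged 4.18 ± 0.820 in drug and 5.55 ± 0.833 in model livers (SD, n = 3 each), with all drug livers below all model livers, as for 4.7% of tested probe sets (difference -1.37, SE 0.50, limma adjusted p = 0.998). Csrnp1, a nuclear protein induced by AXIN1 in human cells, averaged 5.54 ± 0.0926 in drug and 4.91 ± 0.204 in model livers (SD, n = 3 each), with all drug livers above all model livers, as for 3.35% of tested probe sets (difference 0.63, SE 0.238, limma adjusted p = 0.998). Nr4a3, an orphan nuclear receptor of the early response, differed by -0.96 (SE 0.402) in model against control livers, with no overlap, as for 10.9% of tested probe sets that were lower, and Per1, a clock gene that is also induced early, by 1.22 (SE 0.683).

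The list of 35 other early and stress effectors had a probe set for 32. Of these 15 were higher and 17 lower in drug than in model livers (median -0.07), and 19 higher and 13 lower in model than in control livers (median 0.10). Zfp36l2, which destabilizes AU-rich transcripts, differed by 0.80 (SE 0.279) and Mcl1, an antiapoptotic BCL2 relative, by 0.55 (SE 0.20) in model against control livers, each without overlap and with limma adjusted p of 0.384 and 0.392. Every model liver was above every control liver for 11.8% of tested probe sets. Ccn1, a matricellular early gene, differed by 1.19 (SE 0.530) in drug against model livers, without overlap, as for 3.35% of tested probe sets that were higher. Socs3, a feedback inhibitor of cytokine signalling, differed by -2.20 (SE 0.854) there. Its values were 3.90, 2.27 and -0.10 in drug livers 1, 2 and 3 against 4.80, 4.25 and 3.62 in model livers, and drug liver 3 was the lowest of these by a wide margin and near background.

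Transcripts of the kinases upstream were followed in the same way. Of 18 measured MAP kinase pathway genes 8 were higher and 10 lower in drug than in model livers (median -0.06), and likewise in model against control livers (median -0.09). Map2k1, the kinase that activates ERK, averaged 6.24 ± 0.524 in drug, 5.50 ± 0.214 in model and 6.26 ± 0.272 in control livers (SD, n = 3 each). Its model livers lay below all drug and all control livers, with differences of 0.74 (SE 0.307) in drug against model and -0.76 (SE 0.307) in model against control livers and limma adjusted p of 0.998 and 0.401. Of all tested probe sets, 3.35% had every drug liver above every model liver and 10.9% every model liver below every control liver. These comparisons share the model arrays. Map2k3, which activates p38, differed by -0.62 (SE 0.326) in drug against model livers, and Elk4, a partner of serum response factor, by 0.62 (SE 0.288) in model against control livers.

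Of 9 measured Myc network genes 6 were higher and 3 lower in drug than in model livers (median 0.02), and 3 higher and 6 lower in model than in control livers (median -0.05). Mxd4, a Myc antagonist, differed by -0.83 (SE 0.706) and Mlx by 0.27 (SE 0.245) in drug against model livers, while Mxi1, another antagonist, differed by -0.47 (SE 0.270) and Mga by 0.89 (SE 0.527) in model against control livers. Of 10 measured CCR4-NOT and BTG family genes, the deadenylase and its adaptors, 6 were higher and 4 lower in drug than in model livers (median 0.15), and 7 higher and 3 lower in model than in control livers (median 0.15). Tob1, an antiproliferative relative of Btg2, differed by 0.57 (SE 0.286) and Btg1 by -0.34 (SE 0.280) in drug against model livers, and Cnot2 by 0.53 (SE 0.259) and Tob2 by -0.77 (SE 0.433) in model against control livers.

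**Figure D5:**
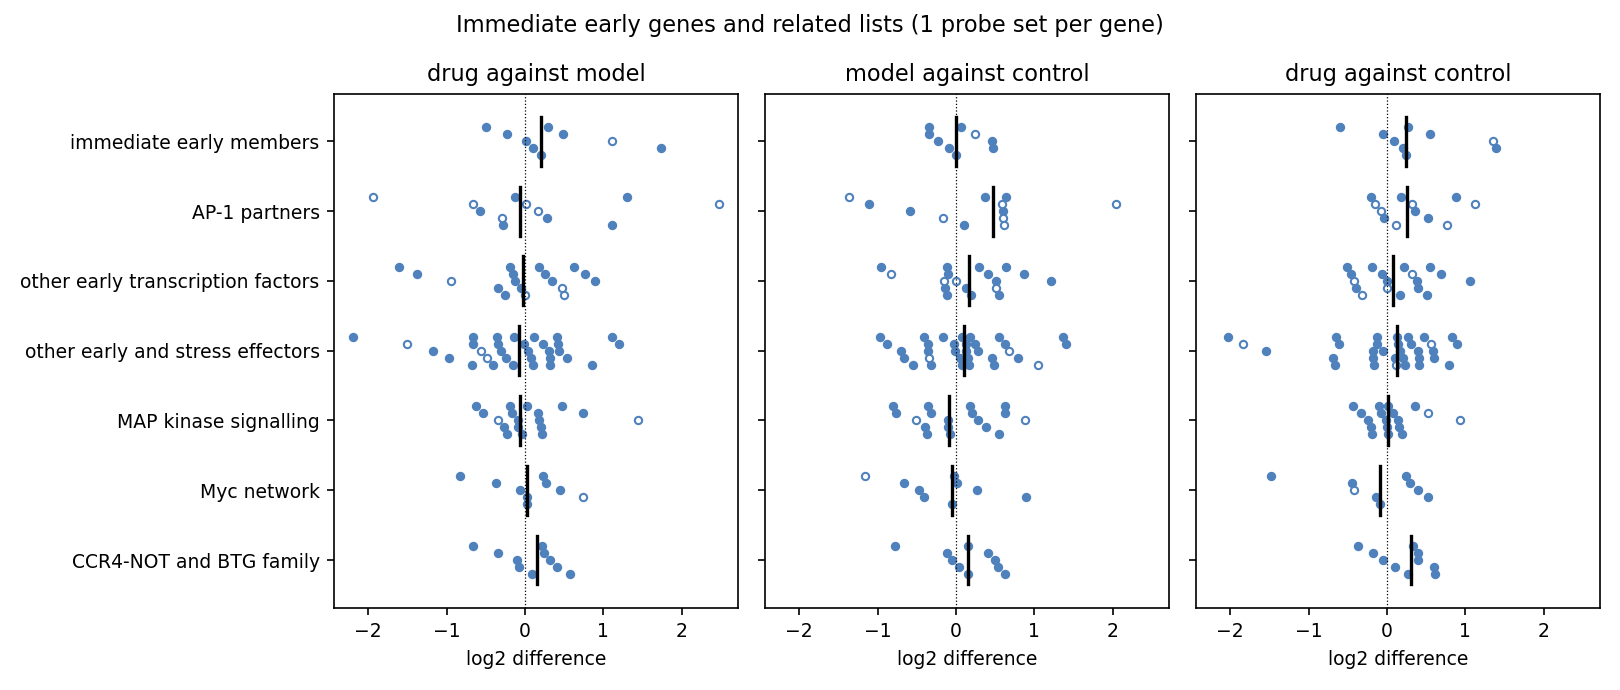
Log2 difference (horizontal axes) of each gene of the immediate early members and of 6 related lists (rows) in the 3 comparisons, with 1 probe set per gene; filled circles passed the filter on low signals, open circles did not, and the bar is the list's median. The bars lie between -0.09 and 0.48, and each list has genes on both sides of 0.

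No marker of other liver cells or of hepatocytes passed the threshold. Of 40 tested, 1, 7 and 2 had an unadjusted p under 0.05 in drug against model, model against control and drug against control livers (limma, lowest adjusted p of 0.998, 0.373 and 0.676). Over all tested probe sets 3.28%, 12.1% and 7.22% did. The 5 sinusoidal endothelial markers measured, all above the filter, summed to 8.89 to 9.17 in drug livers, 9.53 to 9.99 in model livers and 9.02 to 9.25 in control livers, so every model liver was above all others in this sum. Lyve1 was the brightest of these in model livers, with 8.60, 9.42 and 8.70, and weighed most in their sum, which adds signals before the log. Kdr overlapped between groups and differed by -0.17 in model against control livers. Pecam1 overlapped between model and control livers, and Stab1 between drug and model livers. Of all single tested probe sets, 11.8% had every model liver above every control liver and 4.7% every drug liver below every model liver. The 7 stellate cell markers summed to 8.92 to 9.53, 9.49 to 9.74 and 8.80 to 9.20 in drug, model and control livers, and the 6 macrophage markers to 9.96 to 10.38, 10.05 to 10.91 and 9.75 to 10.23. Lymphocyte markers, 5 of 6 above the filter, summed to 5.96 to 6.60, 5.99 to 6.61 and 5.05 to 6.43. The bile duct markers, 3 of 4 above the filter, summed to 5.95 to 6.88, 5.42 to 6.97 and 6.28 to 7.18, and the 3 erythroid markers to 8.45 to 11.00, 8.73 to 11.15 and 10.21 to 11.41. No listed marker was at 0, and Cxcr2, Cd79b and Krt7 lay below the filter. The part of these cells in the values of the early genes was not tested.

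In drug against control livers, Zfp36l2 and Cdkn1a had the smallest p of the related genes, and both were picked out after their values were seen. Cdkn1a, the p21 inhibitor of cyclin-dependent kinases, averaged 5.24 ± 0.709 in drug and 6.79 ± 0.664 in control livers (SD, n = 3 each). The difference was -1.55 (SE 0.481, limma adjusted p = 0.677), with every drug liver below every control liver, as for 6.49% of tested probe sets. Zfp36l2 averaged 6.70 ± 0.359 in drug and 5.80 ± 0.260 in control livers (SD, n = 3 each). The difference was 0.90 (SE 0.279, limma adjusted p = 0.677), with every drug liver above every control liver, as for 6.05% of tested probe sets.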

How the data were processed

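Expression was measured in 9 rat livers, 3 each from the drug, model and control groups, 1 array per rat. The authors deposited linear signal intensities for each probe set, and per the submitters' processing notes the software was GCOS 1.2, with settings and scaling target unknown here. The 2% trimmed mean signal was 33.2 to 66.4 in drug, 34.5 to 43.4 in model and 34.1 to 80.4 in control arrays, so the arrays had no common scale and the number of arrays limits the precision. The 57 control probe sets were left out, and the log2 intensities were quantile normalized. This removes any true difference in total RNA. Of 31042 probe sets 20826 had 1 gene symbol, 436 several and 9780 none, and 18625 at or above the 40th percentile of mean signal were tested.

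Groups were compared in limma 3.58.1 (R 4.3.3; lmFit, and eBayes with an intensity trend) in 1 fit of all 9 arrays, two-sided, with Benjamini-Hochberg adjustment over all tested probe sets. Below the filter, values came from a fit of all 31042 probe sets. A gene was represented by its brightest probe set. The fit was tested on simulated data. The alternatives changed the normalization, offset, filter, trend, array weights, the arrays included, a Gapdh ratio term and the replicate number as a block. The members, lists and alternatives were chosen with earlier results of these data known. All members were named, and of each related list the 2 genes with the smallest unadjusted p in drug against model and in model against control livers. The promoter windows to show were picked after their motif matches were seen. For each member above the filter the 3 genes with the highest r were added. Numbered samples of different groups were checked for pairing: 5 of 9 same-numbered pairs had deviations that correlated above 0.1.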

Additional observations from a re-analysis of the deposited data

How the results depend on the processing

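No member passed under any of the alternatives. Of 687 member values recomputed, 0 of those tested had a limma adjusted p under 0.05, 57 changed sign, and 5 moved by more than the within-group SD. The list medians moved by less than 0.429 under each of 21 alternatives, a bound set by the within-group SD of each array's median member deviation. That bound is wider than the medians themselves, so a median could change sign within it. Leaving out 1 array gave 0.05 to 0.49 in drug against model, -0.26 to 0.28 in model against control and -0.00 to 0.47 in drug against control. Over all probe sets, leaving out 1 array gave 0 to 1 calls in drug against model and in model against control, 0 in drug against control and 0 to 1 in the F test. Other calls were 1 in drug against model with only the groups compared, and 1 without control 1 and drug 1. In model against control they were 1 without normalization, 4 with array weights and 1 without control 1 and drug 1, and in the F test 1 without normalization and 1 without control 1 and drug 1. With the replicate number as a block there were 3 calls in model against control. The numbers did not pair the samples as a whole: 5 of 9 same-numbered pairs correlated above 0.1, and 3 of 9 arrays correlated best with their own number. Those 3 were drug liver 1, model liver 1 and control liver 1. Their r was 0.48 for drug with control, 0.39 for drug with model and 0.20 for model with control. With the block, the dimmer Dusp1 probe set had a limma adjusted p of 0.160 in model against control livers. Counts at an unadjusted p under 0.05 were 185 to 1788 in drug against model, 1156 to 4031 in model against control and 446 to 3856 in drug against control, with array weights giving the highest. Signals near background limit Fosb, the dim Fos probe set, Socs3, and the model values of the dimmer Dusp1 probe set, Atf2 and Fosl1.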
